A study of Mus musculus with 23 samples.

Results

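Slc1a3, which encodes the astrocyte glutamate transporter GLAST, is the locus from which the tamoxifen-inducible recombinase CreER is expressed in cKOAstro mice. The 40 genes described here were listed by symbol as neighbours of that locus on mouse chromosome 15, out of 24411 gene symbols in the count table, and the list's rule uses no measured value, although it was drawn up with earlier results of these data known. By the GENCODE M21 annotation of GRCm38 (mm10), 39 of the 40 lie on chromosome 15, 17 at lower and 22 at higher coordinates than Slc1a3, with gaps between gene bodies of 0.19 to 5.33 Mb. The annotation goes against the label for 1 gene. Zfp131, a zinc finger gene, lies at chr13:119765187-119790889 and was kept because the list names it. Counting Slc1a3 itself, a further 51 genes of the table lie within 20 Mb of that gene. Tested genes are counted by their distance from it below.

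RNA was sequenced from cerebral cortex astrocytes of 23 male mice at postnatal day 70, enriched with magnetic beads against the astrocyte surface antigen ACSA-2, with 1 library per mouse. Both copies of Aldh7a1 were floxed in all mice, and all received 4-hydroxytamoxifen at postnatal days 3 to 4, the ConAstro mice included. The cKOAstro mice carried CreER on 1 Slc1a3 allele, and the ConAstro mice were littermates without Cre. From postnatal day 21, 4 ConAstro and 7 cKOAstro mice ate a control diet, and 5 SFN-fed ConAstro and 7 SFN-fed cKOAstro mice ate chow that contained sulforaphane (SFN), which activates the antioxidant regulator NRF2. The floxed line was made in C57BL/6J embryonic stem cells and kept on C57BL/6NTac, and the study describes its other lines only as C57BL/6. Every CreER carrier therefore also carried whatever sequence stayed next to the knock-in allele, and the genotype, the knock-in and that sequence cannot be told apart in these groups.

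When an allele is inserted into a chromosome, the DNA beside it is inherited with it until recombination separates the pair, and genes close to the insertion are separated least often. Variants in such a stretch can change the level of the genes that they lie in or near, so a flanking interval is commonly inspected in mice made by gene targeting. The interval around Slc1a3 holds genes of unrelated function. They include cytokine and hormone receptors, parts of the mTOR and AMPK kinases, the cohesin loader Nipbl, the microRNA processing enzyme Drosha and the ketone body enzyme Oxct1.

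The labels were checked first with the genes that the genotype targets. Aldh7a1 read 207 to 220 CPM (read counts scaled to the library's size by TMM, so that libraries compare) in ConAstro and 45.9 to 77.2 CPM in cKOAstro. Esr1, whose ligand-binding part is fused to Cre in CreER, read 0.651 to 0.989 CPM in ConAstro and 16.0 to 22.6 CPM in cKOAstro. The library labelled SFN-fed ConAstro replicate 1 had 55.7 CPM of Aldh7a1 and 19.96 CPM of Esr1, whereas SFN-fed cKOAstro replicate 2 showed 222 and 0.533 CPM. These 2 libraries went against their labels in both genes. Each genotype result is given with them under their labels (23 libraries) and without them (21 libraries), and they were never moved to the other group. Among the 21 libraries, 13 of 13 cKO and 0 of 8 Con libraries had over 5 CPM of Esr1. This split followed from leaving out the 2 libraries partly by their Esr1, so it does not test the labels. Slc1a3 was also among the genes for which these libraries were left out. It read 2100 CPM in SFN-fed ConAstro replicate 1 and 4436 CPM in SFN-fed cKOAstro replicate 2. In the 21 libraries it read 3964 to 5674 CPM in the 8 Con and 1559 to 2870 CPM in the 13 cKO libraries. These ranges did not overlap, which is no independent check of the labels. The astrocyte markers were present in all libraries at a summed 10709 to 21365 CPM, beside summed oligodendrocyte markers of 18954 to 49435 CPM. Of the other cell types, the endothelial list had the most markers at an unadjusted p under 0.05, 4 of 5 with 0 called. They summed to a median of 397 CPM (169 to 594) in the Con and a lower 212 CPM (139 to 599) in the cKO libraries of the 21. The microglial markers summed to 838 to 2263 CPM in Con and 284 to 3073 CPM in cKO libraries, and the part of these cells in the members' values was not tested.

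None of the 39 members with enough counts to test changed between genotypes at an adjusted p under 0.05 (edgeR quasi-likelihood test across all genes, Benjamini-Hochberg adjustment). In the 21 libraries the test called 5 of 17264 genes, 0.029%, and no member. At an unadjusted p under 0.05 it marked 8 of 39 members, 20.5%, where 15.3% of all tested genes were marked. In the 23 libraries it called 0 of 17302 genes, and unadjusted p-values under 0.05 came from 11 of 39 members, 28.2%, and from 20.6% of all genes. The members' median log2 fold change, cKO against Con, was -0.08 in the 21 libraries, with 15 of 39 members above 0 (38.5%, against 50.6% of all tested genes) and 24 below, and the median over all tested genes was 0.002. Their median absolute log2 fold change was 0.14, and that of all genes was 0.11. The ranges of Con and cKO libraries overlapped for all 39 members in the 21 libraries, while 0.0232% of all genes had ranges that did not overlap. DESeq2 on the same 21 libraries also called 0 members at an adjusted p under 0.05.

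**Figure D1:**
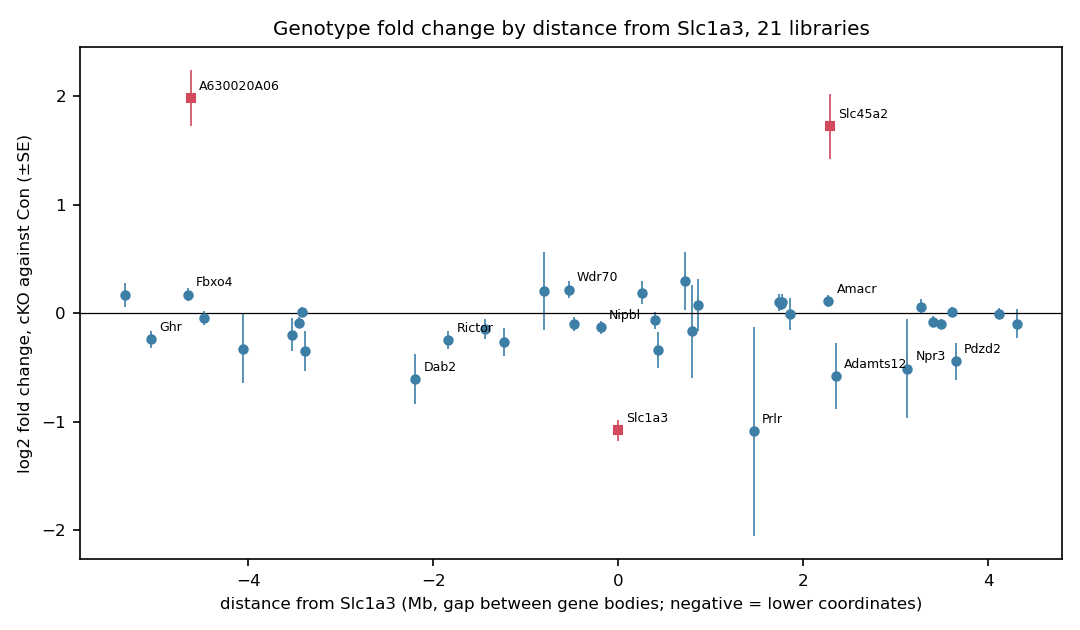
Log2 fold change of cKO against Con libraries (y axis, ±SE, 21 libraries, edgeR) by the distance of each gene from Slc1a3 in Mb (x axis). Blue circles are the 38 tested members on chromosome 15, and red squares are Slc1a3 and 2 genes that are not members. The members lie between -1.09 and 0.30, while A630020A06 stands at 1.98 and Slc45a2 at 1.72.

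Of the 5 genes called in the 21 libraries, 3 lay on chromosome 15 within 5 Mb of Slc1a3: Slc1a3 itself, A630020A06 and Slc45a2. The other 2 were Esr1 and Aldh7a1, whose levels, with that of Slc1a3, also decided which libraries were left out. A630020A06 and Slc45a2 are not members, but both lie between members and both were higher in cKO. A630020A06 is a sparsely counted gene, named Gm2093 in RefSeq, that begins at chr15:3996039 on the plus strand, 4.62 Mb from Slc1a3. It read 0.067, 0.19, 0.13 and 0.10 CPM in the 4 ConAstro libraries and 0.54 to 0.84 CPM in the 7 cKOAstro libraries. With SFN it read 0.078 to 0.31 CPM in the 4 Con and 0.37 to 0.75 CPM in the 6 cKO libraries that matched their labels. The ranges did not overlap on either diet. Its log2 fold change was 1.98 ± 0.26 (SE), adjusted p = 0.0006 (edgeR). The libraries against their labels read 0.47 CPM in SFN-fed ConAstro replicate 1 and 0.10 CPM in SFN-fed cKOAstro replicate 2, and with both kept the log2 fold change was 1.63 ± 0.34 with an adjusted p of 0.159 (edgeR). Raw counts were 5 to 14 per ConAstro library and 69 to 290 per cKOAstro library. These do not compare directly, because every cKOAstro library was deeper than every ConAstro library. Total counts were 107847897 to 391701247 in cKOAstro and 74771451 to 84049525 in ConAstro.

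A630020A06 begins head to head with AW549877, a gene on the minus strand whose RefSeq start is chr15:3995746. The stretch between both starts is shown because it separates the gene with the largest log2 fold change within 10 Mb of Slc1a3 in the 21 libraries from a neighbour transcribed the other way. With the 2 libraries kept, Prlr at -1.76 was larger in size than A630020A06. The stretch is read from GRCm38 on the plus strand, chr15:3995747-3996038, 292 bases with 65.4% G or C and 24 CG pairs, and belongs to neither gene. Capitals mark the letters CCAAT, searched on both strands and found 2 times on the plus strand and 0 times on the minus strand.
between AW549877 and A630020A06: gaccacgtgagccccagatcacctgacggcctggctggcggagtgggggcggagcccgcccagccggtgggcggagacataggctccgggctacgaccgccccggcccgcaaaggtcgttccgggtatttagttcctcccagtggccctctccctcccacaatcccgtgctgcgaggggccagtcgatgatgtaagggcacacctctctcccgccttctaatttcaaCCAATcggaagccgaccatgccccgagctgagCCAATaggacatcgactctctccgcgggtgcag

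In the RefSeq table of 32851 mouse promoters on the same build, 17.0% had a G or C content at or above that of this stretch, 36.8% held CCAAT on either strand within the same length, and 11.5% held it at least as often. The letters are a description of the reference sequence, and the libraries were not read for variants. AW549877, chosen for description after its values were seen, read 103 to 131 CPM in ConAstro and 95.7 to 116 CPM in cKOAstro. With SFN it read 124 to 130 CPM in the 4 Con and 81.6 to 120 CPM in the 6 cKO libraries, without overlap. Its log2 fold change was -0.28 ± 0.06 (SE) with an adjusted p of 0.296 (edgeR), opposite in sign to its neighbour and not called. Fbxo4, a member on the same side whose gene body ends at chr15:3979573, encodes a substrate-binding part of a ubiquitin ligase. It read 9.59, 11.3, 9.89 and 12 CPM in ConAstro and 10.7 to 13.2 CPM in cKOAstro, with overlapping ranges. Its log2 fold change was 0.17 ± 0.06 with an adjusted p of 0.296 (edgeR).

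Slc45a2, which encodes a transporter of pigment cells, lies at chr15:11000721-11029233 on the plus strand, 2.29 Mb from Slc1a3 and 4.1 kb past the end of the member Amacr on the same strand. It read 0.50, 0.14, 0.080 and 0.24 CPM in ConAstro and 0.36 to 0.82 CPM in cKOAstro. ConAstro replicate 1 stood inside the cKOAstro range and the other ConAstro libraries stood below it. The 4 SFN-fed Con libraries read 0.078 to 0.19 CPM and the 6 SFN-fed cKO libraries 0.37 to 0.92 CPM, without overlap. Raw counts of Slc45a2 were only 7 to 37 per ConAstro library and 10 to 17 in those 4 SFN-fed Con libraries. The log2 fold change was 1.72 ± 0.30 with an adjusted p of 0.0314 (edgeR, 21 libraries), and leaving out any of 14 of the 21 libraries in turn ended the call, with adjusted p-values up to 0.128. The call stood only without cKOAstro replicate 2 or 7, ConAstro replicate 1, or SFN-fed cKOAstro replicate 1, 3, 6 or 7. Of the libraries against their labels, SFN-fed ConAstro replicate 1 read 0.56 CPM and SFN-fed cKOAstro replicate 2 read 1.64 CPM, the highest value of all, and with both kept the adjusted p was 0.159.

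Amacr, a racemase of branched-chain fatty acid and bile acid metabolism, was the member directly before Slc45a2. It read 11.6, 12.2, 13.1 and 12.4 CPM in ConAstro, and 10.9 to 13.4 CPM in cKOAstro. With SFN the range was 10.5 to 12.6 CPM in the 5 Con libraries and 11.9 to 14.3 CPM in the 7 cKO libraries. All these ranges overlapped, and the log2 fold change was 0.11 ± 0.05 with an adjusted p of 0.325 (edgeR, 21 libraries). A fold change of the size of Slc45a2 was therefore not shared by the gene 4.1 kb before it.

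**Figure D2:**
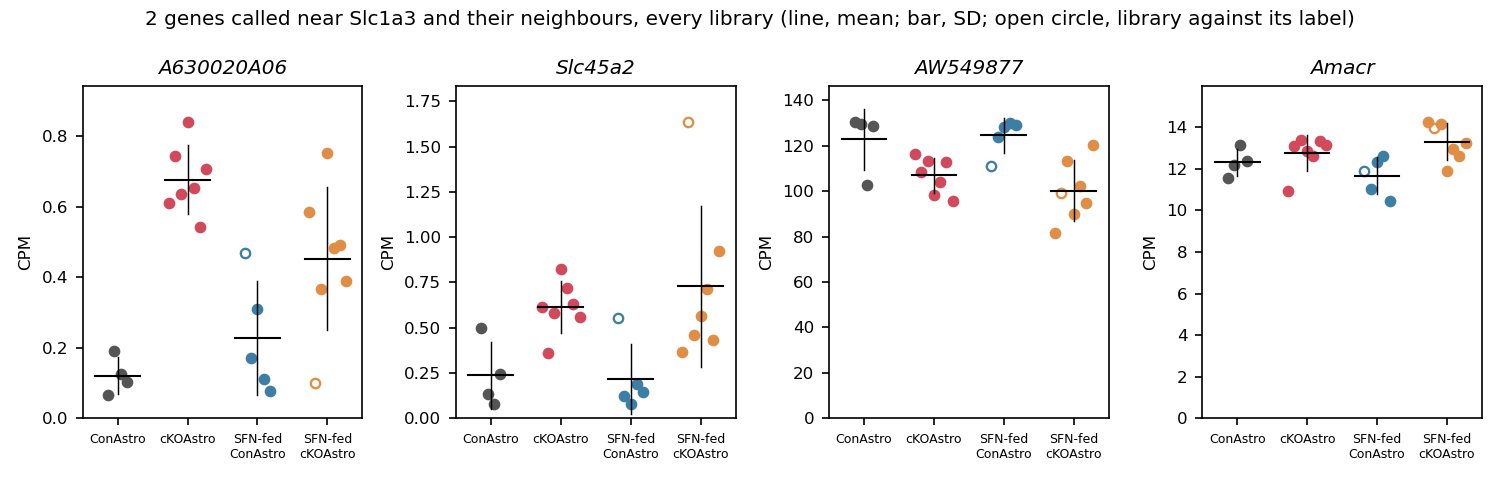
CPM in every library (y axes, linear from 0) by group (x axes) for A630020A06, Slc45a2 and the genes beside them, AW549877 and Amacr. Lines are group means, bars are SDs over all libraries of a group and open circles are the 2 libraries against their labels. For A630020A06 the open circle of SFN-fed ConAstro reads 0.47 CPM and that of SFN-fed cKOAstro 0.10 CPM.

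By distance, 22 tested genes lay within 2 Mb of Slc1a3, of which 18 were members, and 0 were called and 4 had an unadjusted p under 0.05, 18.2%. From 2 to 5 Mb there were 31 genes with 18 members, of which 2 non-members were called and 8 genes had an unadjusted p under 0.05, 25.8%. From 5 to 10 Mb it was 1 of 4 genes, from 10 to 20 Mb 2 of 15, 13.3%, and beyond 20 Mb on the same chromosome 88 of 608, 14.5%. Of the 19 tested non-members within 10 Mb other than Slc1a3, 5 had an unadjusted p under 0.05, 26.3%, against 15.3% of all tested genes. Among the 10 SFN libraries the shares at an unadjusted p under 0.05 were 31.8% up to 2 Mb and 25.8% from 2 to 5 Mb. They were 1 of 4 genes from 5 to 10 Mb, 4 of 15 (26.7%) from 10 to 20 Mb and 15.7% beyond 20 Mb, so they did not fall steadily with distance. On the control diet they were 9.09% (2 of 22 genes) up to 2 Mb and 9.68% (3 of 31) from 2 to 5 Mb. Farther out they were 1 of 4, 0 of 15 and 2.93%. The median absolute log2 fold change up to 2 Mb and from 2 to 5 Mb was 0.15 and 0.20 in the 21 libraries, 0.20 and 0.28 with SFN, and 0.11 and 0.07 on the control diet, so the order of these 2 distances was not the same on both diets.

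The 3 nearest members at lower coordinates encode parts of the nucleus. Nipbl, which loads cohesin on chromosomes, lies at chr15:8290617-8444463, 0.19 Mb from Slc1a3. It read 126, 135, 113 and 130 CPM in ConAstro, and 137, 139, 115, 115, 119, 123 and 117 CPM in cKOAstro. In SFN-fed ConAstro the values were 117, 131, 138, 134 and 132 CPM, of which the first is the library against its label, and in SFN-fed cKOAstro they were 92.0, 111, 120, 105, 125, 112 and 129 CPM. The control-diet ranges overlapped, and on the SFN diet the 6 cKO libraries lay below the 4 Con libraries once the 2 libraries were left out. The log2 fold change was -0.13 ± 0.06 over both diets (adjusted p = 0.318, edgeR, 21 libraries). Nup155, a nucleoporin 0.47 Mb away, read 19.7 to 24.6 CPM in ConAstro and 19.1 to 23.7 CPM in cKOAstro, and its log2 fold change was -0.10 ± 0.06. Wdr70, a WD repeat protein 0.53 Mb away, read 9.17, 8.67, 10.5 and 8.89 CPM in ConAstro and 9.52, 12.7, 10.9, 12.3, 8.77, 9.68 and 9.82 CPM in cKOAstro. Its log2 fold change of 0.22 ± 0.08 was among the larger positive values of the members, with an adjusted p of 0.296 (edgeR).

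At higher coordinates the nearest members were Ranbp3l, Skp2 and Lmbrd2. Ranbp3l, which encodes a nuclear export factor for SMAD proteins, lies 0.26 Mb from Slc1a3. It read 29.9, 27.5, 27.3 and 35.5 CPM in ConAstro and 33.0, 36.6, 39.7, 35.6, 36.0, 46.5 and 31.6 CPM in cKOAstro, where ConAstro replicate 4 reached into the cKO range. Its ranges with SFN were 27.0 to 34.4 CPM in Con and 21.7 to 42.2 CPM in cKO libraries. The log2 fold change was 0.29 ± 0.10 on the control diet and 0.09 ± 0.18 in the 10 SFN libraries, neither called (adjusted p = 0.981 and 0.841, edgeR). Skp2, the substrate receptor of an SCF ubiquitin ligase, read 5.93 to 7.92 CPM in ConAstro and 5.92 to 7.87 CPM in cKOAstro. These ranges nearly coincide, and the log2 fold change over both diets was -0.06 ± 0.08. Lmbrd2, a membrane protein 0.43 Mb away, read 24.8 to 29.4 CPM in ConAstro and 21.2 to 28.1 CPM in cKOAstro. Relative to its level, its SFN-fed cKOAstro libraries spread widest of the 6 nearest members, from 7.39 to 31.5 CPM, and the log2 fold change over both diets was -0.34 ± 0.17 with an adjusted p of 0.331 (edgeR).

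**Figure D3:**
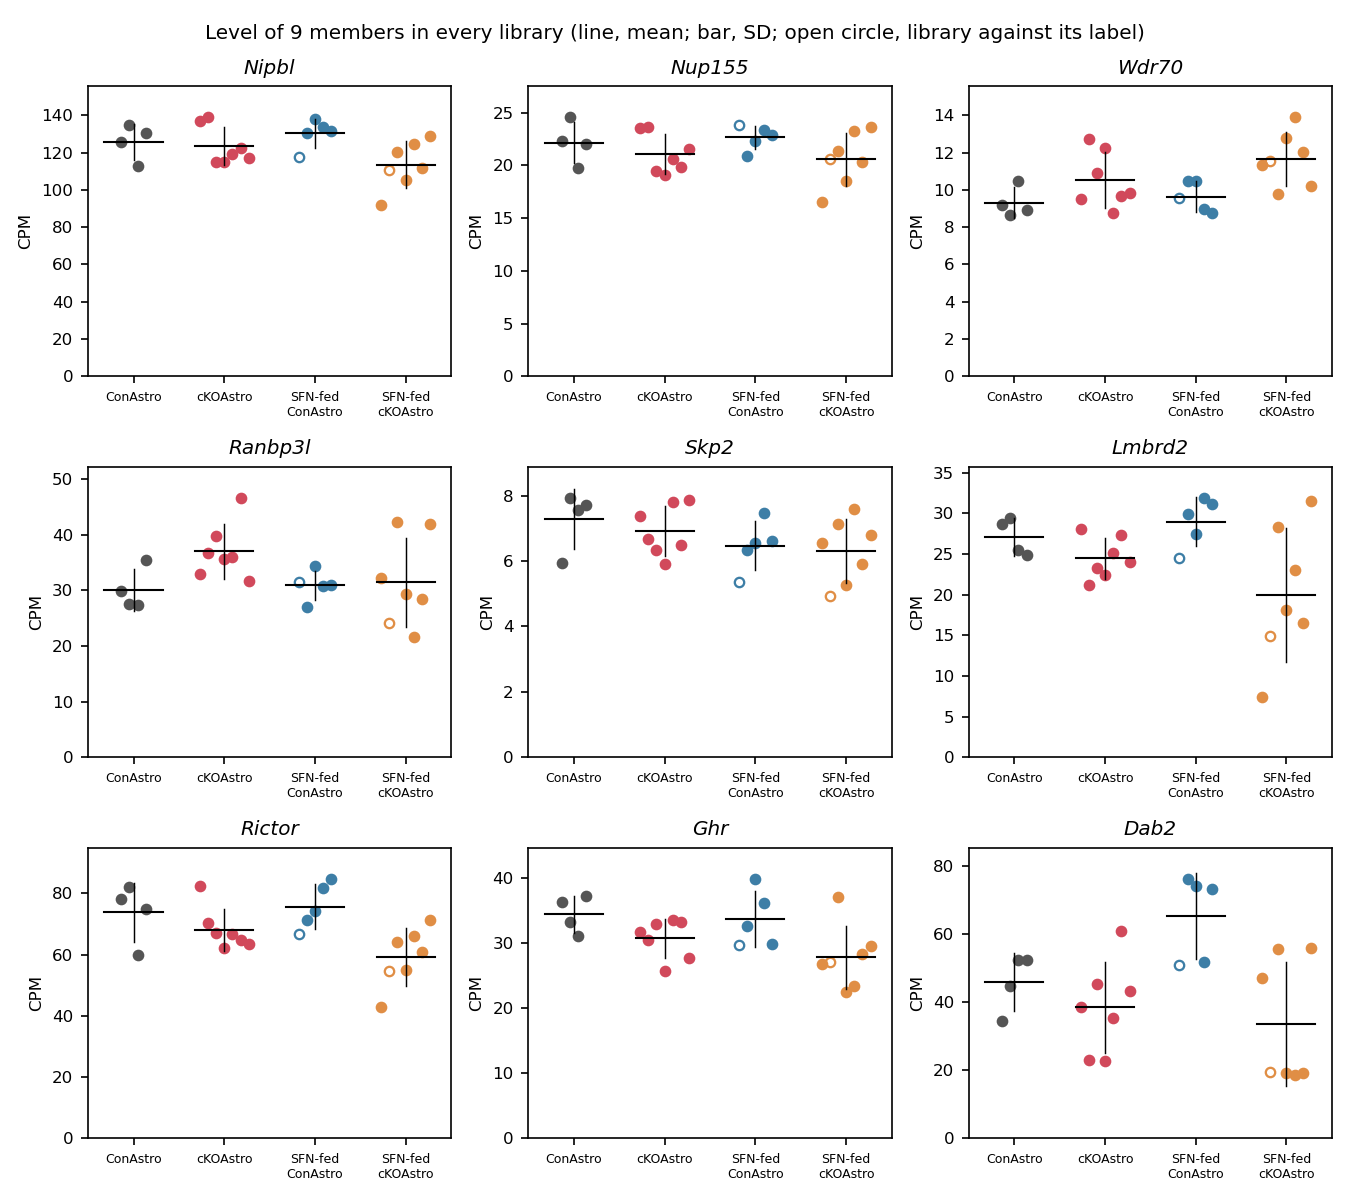
CPM in every library (y axes, linear from 0) by group (x axes) for the 6 members nearest to Slc1a3 and for Rictor, Ghr and Dab2. Lines are group means, bars are SDs and open circles are the 2 libraries against their labels. Con and cKO libraries overlap in every panel, for Nipbl and Rictor on the SFN diet only through the open circles, and SFN-fed cKOAstro spans 7.39 to 31.5 CPM for Lmbrd2 and 18.5 to 55.9 CPM for Dab2.

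All 6 receptors had negative log2 fold changes in the 21 libraries, with a median of -0.29, and none was called. Of all tested genes, 50.6% were above 0. Prlr, Npr3 and Il7r of these receptors are set beside markers of other cell types below. Ghr, the growth hormone receptor, had the lowest unadjusted p among the members. It read 36.3, 33.2, 31.0 and 37.2 CPM in ConAstro, and 31.7, 30.4, 32.9, 25.7, 33.5, 33.2 and 27.7 CPM in cKOAstro. Its values were 29.9 to 39.8 CPM in the 4 SFN-fed ConAstro and 22.5 to 37.1 CPM in the 6 SFN-fed cKOAstro libraries, so the genotypes overlapped on both diets. The log2 fold change was -0.24 ± 0.08 with an unadjusted p of 0.00617 and an adjusted p of 0.296 (edgeR). Lifr, the receptor chain for leukaemia inhibitory factor, was the receptor with the highest level per kb of exon, 11.3 ± 0.65 CPM per kb in ConAstro (SD, n = 4). It read 125, 120, 129 and 112 CPM in ConAstro and 85.2 to 138 CPM in cKOAstro, with 6 of 7 cKOAstro libraries below the lowest ConAstro library. Its log2 fold change was 0.00 ± 0.13 on the SFN diet and -0.28 ± 0.12 on the control diet. The interaction of genotype and diet was not called for Lifr (edgeR). Ptger4, a prostaglandin E2 receptor, read 4.73 to 8.01 CPM in ConAstro and 3.34 to 7.21 CPM in cKOAstro. On the other strand its exons overlap those of Ttc33 by 82 bases and of the pseudogene Gm15937 by 1015 bases. How reads there were assigned is not known, as the strand setting is not given.

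Prlr and Npr3 were highest in the libraries with the highest choroid plexus markers, and Il7r in those with the highest microglial markers. The 4 libraries with the highest summed choroid plexus markers, from 1835 to 4322 CPM, were ConAstro replicate 2, cKOAstro replicate 5 and SFN-fed ConAstro replicates 1 and 2, and all others were at or below 977 CPM. These 4 libraries had 21.5 to 45.0 CPM of Prlr, the prolactin receptor, and the other libraries had 0.24 to 9.45 CPM. They also had the 4 highest values of Npr3, the clearance receptor of natriuretic peptides, at 3.88 to 8.93 CPM against 0.51 to 3.35 CPM. The log2 fold changes were -1.09 ± 0.96 for Prlr and -0.51 ± 0.46 for Npr3 in the 21 libraries, each close in size to its SE. Il7r, the interleukin-7 receptor, read 3.30 to 4.18 CPM in the 4 libraries with the highest summed microglial markers and 0.26 to 2.59 CPM in the rest. Whether differences in these cells account for the values was not tested, and in bulk libraries fewer cells of a type cannot be told apart from less RNA per cell.

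**Figure D4:**
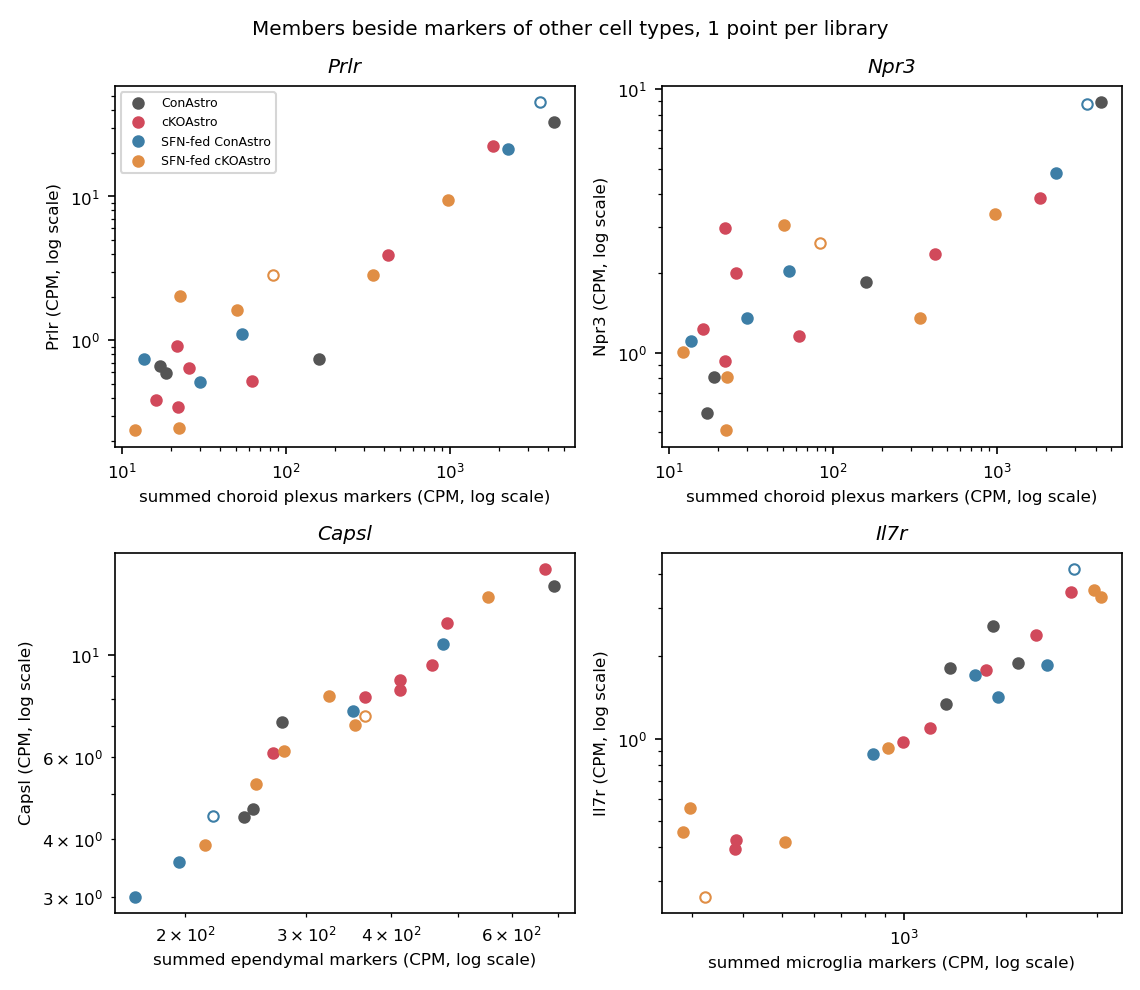
Level of 4 members in each library (y axes, CPM, log scale) against the summed CPM of markers of another cell type (x axes, log scale), with choroid plexus for Prlr and Npr3, ependymal cells for Capsl and microglia for Il7r. Colours are the 4 groups and open circles the 2 libraries against their labels. The 4 libraries at or above 1835 CPM of choroid plexus markers have the 4 highest values of Prlr and Npr3.

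The members of cilia varied in the same manner. Capsl, a calcium-binding protein gene, read 11.7 to 15.3 CPM in the 4 libraries with the highest summed ependymal markers and 2.99 to 10.5 CPM in the other 19. Spef2, which encodes a sperm flagellum and cilium protein, had 3 of its 4 highest values in those libraries. Neither was called, with log2 fold changes of 0.30 ± 0.27 for Capsl and 0.08 ± 0.24 for Spef2 and adjusted p-values of 0.589 and 0.885 (edgeR, 21 libraries). Among the secreted and adhesion genes, Egflam, a matrix protein gene, read 33.8 to 40.1 CPM in ConAstro and 30.2 to 43.6 CPM in cKOAstro. With SFN it read 38.3 to 47.8 CPM in the 4 Con libraries, and 5 of the 6 cKO libraries read 19.5 to 34.3 CPM while SFN-fed cKOAstro replicate 3 read 46.4 CPM. Gdnf, a neurotrophic factor gene, stayed between 0.052 and 0.56 CPM in all 23 libraries, and Cdh6, a cadherin gene, between 2.26 and 6.49 CPM.

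Of 9 members with roles in kinase signalling, lipids and trafficking, 8 had negative log2 fold changes in the 21 libraries, with a median of -0.25. None was called, and 50.6% of all tested genes were above 0. Rictor, the defining subunit of the mTORC2 kinase complex, lies at chr15:6708379-6800401. It read 78.1, 82.2, 60.0 and 75.1 CPM in ConAstro and 82.4, 70.5, 66.9, 62.2, 66.8, 64.9 and 63.5 CPM in cKOAstro, with 1 cKOAstro library above all ConAstro libraries. On the SFN diet the 4 Con libraries read 71.32 to 84.70 CPM and the 6 cKO libraries 42.91 to 71.27 CPM, ranges that touched without overlapping. The log2 fold change was -0.25 ± 0.08 with an adjusted p of 0.296 (edgeR, 21 libraries). Prkaa1, a catalytic subunit of AMPK, was among the steadiest members, with 42.7 to 48.3 CPM in the 11 control-diet libraries and a log2 fold change of -0.09 ± 0.05. Golph3, a Golgi protein that binds phosphoinositide, read 90.7 to 101 CPM in ConAstro and 92.0 to 111 CPM in cKOAstro, with a log2 fold change of 0.01 ± 0.05.

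Dab2 and Pdzd2 had the widest genotype differences of this group. Dab2, an endocytic adaptor also found in macrophages, read 34.5, 44.6, 52.4 and 52.3 CPM in ConAstro and 38.4, 22.9, 45.3, 22.7, 35.4, 60.8 and 43.2 CPM in cKOAstro. In the SFN-fed cKOAstro libraries that matched their label it split into 3 at 47.1 to 55.9 CPM and 3 at 18.5 to 19.3 CPM. All 3 low libraries, and both low cKOAstro libraries (22.9 and 22.7 CPM), carry names of the series Astro, which no Con library of the 21 carries. Of the libraries against their labels, SFN-fed ConAstro replicate 1, also of series Astro, read 50.9 CPM, and SFN-fed cKOAstro replicate 2, of series 143, read 19.5 CPM. The log2 fold change was -0.61 ± 0.23 with an adjusted p of 0.296 (edgeR). The 6 libraries of all 23 with the lowest summed microglial markers, 284 to 509 CPM against 838 CPM or more in the others, were the 6 with the lowest Dab2, 18.5 to 22.9 CPM against 34.5 CPM or more. Border macrophage markers summed to 143 to 353 CPM in the Con and 81.4 to 347 CPM in the cKO libraries of the 21, and 1 of the 4 libraries highest in them was among the 4 highest in Dab2. The part of these cells in the Dab2 values was not tested. Pdzd2, a PDZ domain protein gene, read 34.9 to 54.2 CPM in ConAstro and 40.8 to 51.9 CPM in cKOAstro, a narrow range inside the first. On the SFN diet it read 50.7 to 61.6 CPM in the 4 Con libraries, and 24.0, 58.4, 16.6, 26.6, 30.1 and 42.3 CPM in the 6 cKO libraries. Of these, 16.6, 26.6 and 30.1 CPM came from series Astro, and 24.0 CPM from series 143. The log2 fold change of Pdzd2 was -0.44 ± 0.17 over both diets with an adjusted p of 0.296 (edgeR). With the name series as a term, the log2 fold changes were 0.13 for Pdzd2 and 0.10 for Dab2, neither called.

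The 11 members of the nucleus, RNA processing and ribosome formation divided into 7 higher and 4 lower, with log2 fold changes from -0.13 to 0.22. Zfr, an RNA-binding zinc finger gene, Sub1, a transcriptional coactivator gene, and Drosha, the nuclear microRNA processing enzyme, stood among the 6 highest members per kb of exon. Drosha read 73.2 to 83.1 CPM in ConAstro and 74.9 to 84.7 CPM in cKOAstro, with a log2 fold change of -0.00 ± 0.05. Brix1 and Dnajc21, both of ribosome assembly, and Rad1, of the DNA damage checkpoint, are next to each other and had log2 fold changes of 0.09 ± 0.05, 0.10 ± 0.08 and 0.11 ± 0.07, and none was called. Zfp131 on chromosome 13 had a log2 fold change of 0.01 ± 0.05.

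Per kb of exon, Oxct1, which encodes the enzyme that activates ketone bodies for oxidation, was the highest member at 77.7 ± 2.5 CPM per kb in ConAstro (SD, n = 4), followed by Golph3 at 29.4 ± 1.5 and Zfr at 26.9 ± 1.6. Golph3 and Zfr lay within the sum of their SDs of each other and Oxct1 lay above both. Oxct1 read 290, 276, 298 and 287 CPM in ConAstro and 232 to 333 CPM in cKOAstro, with a log2 fold change of -0.04 ± 0.07. Exons of Oxct1 overlap those of BC037032 by 467 bases, and exons of Golph3 those of 1810049J17Rik by 450 bases, both on the other strand. At the other end, Plcxd3, a phospholipase-like gene, was at 0.053 ± 0.025 CPM per kb. Agxt2, a mitochondrial aminotransferase gene, had 6 counts in all, spread over 4 libraries, and was not tested. The 19 libraries with 0 counts of Agxt2 allow up to 0.00793 to 0.064 CPM by 3 counts, which covers counting error only.

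The genotype comparison was repeated within each diet. On the control diet 0 of 39 members were called, beside 4 of 17406 genes, 0.023% (Esr1, Aldh7a1, A630020A06 and Slc1a3), and 2 members had an unadjusted p under 0.05, Ranbp3l and Lifr, 5.13% against 3.74% of all genes. On the SFN diet without the 2 libraries 0 members were called, beside 2 of 16705 genes, 0.012% (Esr1 and Aldh7a1), and 11 members had an unadjusted p under 0.05, 28.2% against 14.9% of all genes. No member had an unadjusted p under 0.05 on both diets. The diets share no library, and 27 of 39 members, 69.2%, had the same sign on both, 9 higher and 18 lower, where 61.9% of 16694 genes did. Ranges that did not overlap were found for 0 members on the control diet, where 0.487% of genes had them, and for 2 members, Nipbl and Rictor, both lower in cKO, among the 10 SFN libraries, 5.13% against 4.69% of genes.

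**Figure D5:**
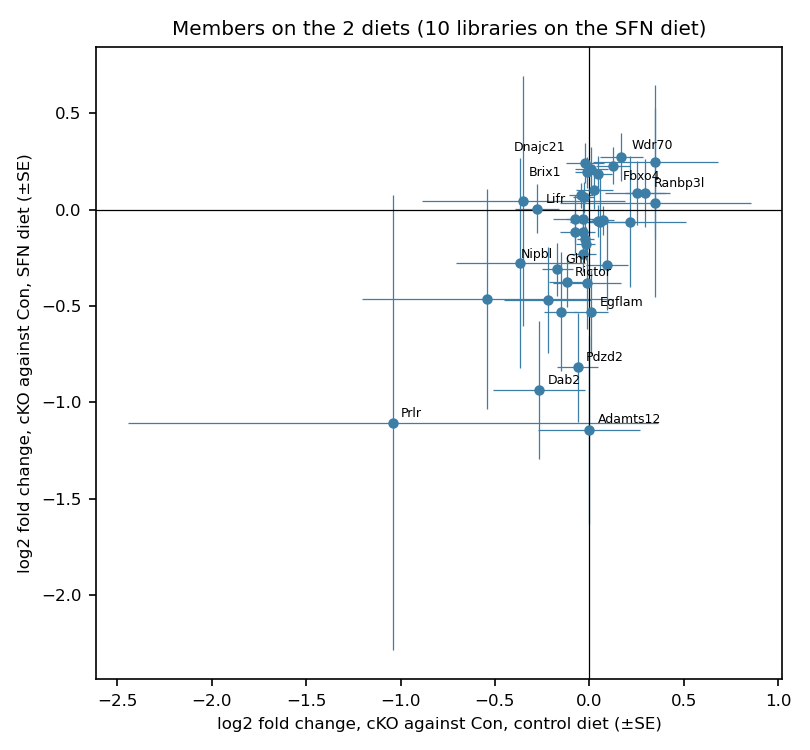
Log2 fold change of cKO against Con for the 39 tested members on the control diet (x axis) and on the SFN diet without the 2 libraries against their labels (y axis), with SE bars. Labels mark members with an unadjusted p under 0.05 on either diet, and Prlr. Adamts12 at -1.14 and Dab2 at -0.94 have larger negative values on the SFN diet than on the control diet, at -0.00 and -0.27.

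The SFN libraries as labelled also gave 0 called members of 39 and 0 called genes of 16672, with 12 members at an unadjusted p under 0.05 (30.8%, against 20.3% of genes). This count depended on 1 library and on the method. Without SFN-fed cKOAstro replicate 3, Adamts12 and Pdzd2 were called, among 701 of 16604 genes, 4.22%. Limma-voom with sample quality weights called 15 members there, among 4398 of 16672 genes, 26.4%. Adamts12, a metalloprotease gene, read 0.67 to 1.35 CPM in the 4 SFN-fed ConAstro libraries that matched their label and 0.15 to 0.64 CPM in 5 of the 6 matching SFN-fed cKOAstro libraries, with SFN-fed cKOAstro replicate 3 at 1.21 CPM.

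The name series of the libraries could not be separated from genotype on the control diet, where all 4 ConAstro libraries belong to series 143 and no cKOAstro library does. On the SFN diet, series 147 holds both genotypes, with SFN-fed ConAstro replicates 4 and 5 and SFN-fed cKOAstro replicate 3. Within it Rictor read 81.8 and 84.7 CPM in Con and 64.2 CPM in cKO, and Nipbl read 134 and 132 CPM against 120 CPM. Ghr read 36.1 and 29.9 CPM against 37.1 CPM, Dab2 51.7 and 73.2 CPM against 55.4 CPM, and Pdzd2 60.7 and 50.7 CPM against 58.4 CPM. The cKO library was lower than both Con libraries for Rictor and Nipbl and not for Ghr, Dab2 or Pdzd2. For Rictor and Nipbl this order was fixed in advance, because series 147 is part of the 10 SFN libraries, where their ranges did not overlap. It is therefore no separate check of the name series. A630020A06 read 0.11 and 0.078 CPM against 0.37 CPM, and Slc45a2 0.19 and 0.14 CPM against 0.46 CPM. The order of these genes was fixed in the same way, as neither overlapped among the 10 SFN libraries.

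No member passed the test for the SFN diet. Across both genotypes 0 of 39 members and 0 of 17302 genes were called (edgeR), 2 members had an unadjusted p under 0.05, 5.13% against 8.33% of genes, and DESeq2 also called 0 genes. Those 2 were Ccdc152, a coiled-coil gene with a log2 fold change of 0.27 ± 0.11, and Brix1 with 0.11 ± 0.05. Exons of Ccdc152 overlap those of Selenop, a selenium carrier gene on the other strand, by 439 bases. How reads there were assigned is likewise not known. The interaction of genotype and diet was called for 0 members and 0 genes, in 23 and in 21 libraries. In the 21 libraries 3 members, Pdzd2, Brix1 and Egflam, had an unadjusted p under 0.05, 7.69% against 8.32% of genes, and in the 23 libraries 1 member did, Pdzd2, 2.56% against 7.32%. For Pdzd2 the difference between the diets in log2 fold change was -0.76 ± 0.31 in the 21 libraries, with an adjusted p of 0.573 (edgeR).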

How the data were processed

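Per the labels and the study's methods, polyadenylated RNA was sequenced in paired ends, and the authors aligned reads to mm10 with STAR (gene count mode) after FastQC, and deposited raw counts per gene symbol, 1 column per library, without normalization or pooling. The aligner version, annotation and strand setting are not given in the sources used here. Counts summed to 46890715 to 391701247 per library, so low members have few reads in the shallowest. Symbols were placed by GENCODE M21 (23379 matched) or RefSeq (946).

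Groups follow the labels. The members and lists were chosen with earlier results of these data known. Genes passing filterByExpr (minimum count 10) were tested with edgeR 4.0.16 (R 4.3.3; TMM, quasi-likelihood, diet as covariate), with Benjamini-Hochberg adjustment over all tested genes and a threshold of 0.05. DESeq2 1.42.0, limma 3.58.1 (voom), other normalization and filters, thinned counts, name series, replicate block and leaving out each library were alternatives. Members were named if called, among the 10 lowest p-values in the 21 libraries, among the 3 nearest on each side, or without overlap. Other members are named by role. The edgeR test was tried on simulated counts with the design of the 21 libraries. The simulated counts held no effect of name series, cell mixture or a library against its label, so they do not cover these. Replicate numbers did not pair libraries.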

Additional observations from a re-analysis of the deposited data

Results flagged for a closer look

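Of 64 groups of libraries examined for the named members and 3 neighbouring genes, 5 held a library farther from the others than the 95% limit of Dixon's test for their size, where chance flags about 1 in 20 groups. In cKOAstro, replicate 1 was flagged for 3 members: Rictor at 82.4 CPM, above 62.2 to 70.5 CPM in the other 6, Mtmr12 at 25.4 CPM, above 22.8 to 23.8 CPM, and Amacr at 10.9 CPM, below 12.6 to 13.4 CPM. Slc45a2 stood out in SFN-fed ConAstro replicate 1, a library against its label, at 0.555 CPM against 0.078 to 0.188 CPM in the other 4. AW549877 stood out in ConAstro replicate 3, at 103 CPM against 129 to 131 CPM in the other 3.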

How the results depend on the processing

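Of 198 alternative counts of called members over the 8 comparisons, 196 equalled the main count of 0. The exceptions both concern the SFN diet as labelled, where limma-voom with sample quality weights called 15 members (and 26.4% of all genes) and where leaving out 1 library at a time gave 0 to 2, the 2 without SFN-fed cKOAstro replicate 3 (4.22% of all genes). Over the 13 named members, 400 of 403 alternative log2 fold changes in the 21 libraries kept their direction and were not called. The other 3 arose with the library name series as a term, which gave 0.011 for Ghr, 0.10 for Dab2 and 0.13 for Pdzd2, and only series 147 then holds both genotypes on 1 diet. Same-numbered libraries had deviations that correlated from -0.211 to 0.381, over 0.1 in 2 of 9 pairs, and 1 of the 9 correlated best with its own number, so the numbers do not pair the libraries. With the replicate block, 0 members were called in each of the 8 comparisons. With that block Slc45a2 lost its call (adjusted p = 0.187), as it did with numbered libraries only (0.271), with the name series (0.805) and, chosen after seeing the data, without the 3 libraries high in choroid plexus markers (0.464). A630020A06 lost its call with the name series (adjusted p = 0.0759) and with the 2 libraries kept, and kept it when each library was left out (adjusted p up to 0.00338). Low counts limit Agxt2, Gdnf, Plcxd3, A630020A06 and Slc45a2 in the shallowest libraries.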
